A study of Mus musculus with 25 samples.

Results

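*Cirbp* and *Rbm3*, the 2 cold-inducible RNA-binding protein genes, were followed among the 50559 genes listed for cholinergic neurons of the mouse spinal cord, and both were found by their symbols. The neurons carried an HA tag on their ribosomes, and HA immunoprecipitation (IP) was used to enrich the mRNA bound to cholinergic neuron ribosomes. RNA of other cells remained in the IP, as given below. The mice were 6-mo-old males of 2 genotypes. Controls carried ChAT-Cre, which drives Cre from the choline acetyltransferase gene, and the tag as RiboTag fx/+. *ChAT-BKO* mice carried both of these and in addition *Bmal1* fx/fx, so that Cre deletes the clock activator *Bmal1*. Cre acts in all cholinergic neurons, of which motor neurons are a part. Tissue was taken at zeitgeber time (ZT) 8, in the light and rest period, or at ZT20, in the dark and active period, with 6 biological replicates in each of the 4 groups, giving 24 IP libraries beside 1 pooled whole spinal cord Input from both genotypes.

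The members belong to a small family of proteins with 1 RNA recognition motif followed by a glycine-rich tail. Mild cooling raises both transcripts and proteins, and warming lowers them, in contrast to the chaperones that heat shock factor 1 (HSF1) induces. CIRBP has been described as a link between body temperature cycles and the clock through the transcripts it binds, and RBM3 as a protein that keeps translation and synapses going in the cold. In mice, body temperature is higher in the dark and active period than in the light. Temperature was not among the values used here.

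The IP libraries held 4.04 to 31.7 M counts. Levels are given as CPM, a gene's count scaled to a common library size. Library sizes of the IP were adjusted by the trimmed mean of M-values (TMM), and that of the Input was not. All 6 cholinergic markers (*Chat*, *Slc18a3*, *Slc5a7*, *Isl1*, *Mnx1* and *Prph*) were above the Input, with a median log2 ratio of 2.91. Markers of oligodendrocytes, astrocytes, microglia, endothelium and skeletal muscle were all below it, with list medians from -4.44 to -2.13, and none was at 0 in all IP libraries. In the IP, the summed oligodendrocyte markers still had group medians of 1812 to 1950 CPM, beside 3379 to 3585 CPM for the summed cholinergic markers. The part of such RNA in the members' values was not tested. *Bmal1*, listed as *Arntl*, was at 8.44 ± 1.43 CPM (SD, n = 6) in controls against 2.64 ± 0.54 CPM after its deletion at ZT8, and at 8.73 ± 1.18 against 1.92 ± 0.52 CPM at ZT20. Its log2 fold change was -1.64 at ZT8 (edgeR adjusted p = 1.56e-05) and -2.08 at ZT20 (edgeR adjusted p = 1.98e-07).

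*Cirbp* (ENSMUSG00000045193) lies at chr10:80165985-80172786 on the plus strand of GRCm38, the assembly also named mm10,, with 7 exons in its 1321-base principal transcript. *Rbm3* (ENSMUSG00000031167) lies at chrX:8138975-8145880 on the minus strand, also with 7 exons in its longest coding transcript of 2792 bases. An antisense gene, *Rbm3os*, overlaps *Rbm3* by 452 bases, and a processed pseudogene, *Rbm3-ps*, copies it at chr1:150265535-150265999. The coding part that holds RNP1, the conserved RNA-contacting motif of the RNA recognition motif, is printed for each gene because it bears on which reads could be shared between them. In the *Rbm3* line the capitals mark the 24 bases of the RNP1 codons. In the other lines they mark bases unlike *Rbm3*. The stretches were read from GENCODE M21 transcripts on GRCm38.
Rbm3, chrX:8144603-8144662, minus strand, exon 3: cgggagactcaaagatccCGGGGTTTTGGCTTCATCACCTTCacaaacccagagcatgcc
Rbm3-ps, chr1:150265820-150265879, minus strand: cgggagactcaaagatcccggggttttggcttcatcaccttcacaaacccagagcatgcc
Cirbp, chr10:80170033-80170092, plus strand, exon 3: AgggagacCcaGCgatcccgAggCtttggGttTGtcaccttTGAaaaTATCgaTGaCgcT

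Over these 60 bases *Rbm3-ps* had 0 bases unlike *Rbm3*, and *Cirbp* had 20, of which 6 fell in the RNP1 codons. Over the 465 coding bases of *Rbm3* the pseudogene was identical at 99.4%, and the 2 transcripts shared an unbroken run of 197 bases. *Cirbp* and *Rbm3* were identical at 72.8% of 453 aligned coding bases, and the longest run shared by their transcripts was 11 bases. The *Cirbp* count was a whole number in 24 of 24 IP libraries and the *Rbm3* count in 0 of 24, where RSEM can give a fraction to each of several genes that a read matches. The share given to *Rbm3-ps* was small, at 0 to 10.8 counts per library and 0.743% of the *Rbm3* total. *Rbm3os* held at most 5 counts in a library, 0.284% of the *Rbm3* total. Counts of 263 to 2036 for *Cirbp* and 184 to 1398 for *Rbm3* gave counting errors of 2.22% to 6.17% and 2.67% to 7.36% of the level, where counting error is that of a Poisson count only.

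The *Cirbp* promoter is shown because it is known for a mild-cold response element, described as a site of the transcription factor SP1. The sequence is the first 189 bases of a window of 300 bases in the RefSeq promoter table for GRCm38.p6, which has 2 windows for *Cirbp*, and the printed part ends at the last base before the start of the principal transcript. The whole window holds 3 GC boxes, of which 2 are in the printed part. The capitals mark the letters TCCCCGCC of the mild-cold response element and the GC box GGGCGG on either strand, which do not overlap here.
Cirbp, chr10:80167589-80167777, plus strand: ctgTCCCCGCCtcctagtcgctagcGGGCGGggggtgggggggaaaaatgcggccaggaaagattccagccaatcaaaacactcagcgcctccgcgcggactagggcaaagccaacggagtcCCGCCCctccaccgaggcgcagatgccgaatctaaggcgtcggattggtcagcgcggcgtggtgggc

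The element began 186 bases before the transcript start, at chr10:80167592-80167599. On either strand, TCCCCGCC was present in 5.38% of all 32851 promoter windows of 300 bases, and GGGCGG in 35.7%. The E-box CACGTG, to which BMAL1 and CLOCK bind, was in neither *Cirbp* window and in 7.15% of all windows. The heat shock element core GAANNTTC was also in neither, against 7.86% of all windows. Such matches are of letters only.

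In controls, *Cirbp* ran from 50.6 to 95.3 CPM at ZT8, with a median of 70.8, and from 53.0 to 71.5 CPM at ZT20, with a median of 60.1. In *ChAT-BKO* neurons it ran from 67.3 to 93.7 CPM at ZT8, with a median of 77.9, and from 49.1 to 59.2 CPM at ZT20, with a median of 53.7. Thus 6 of 6 *ChAT-BKO* libraries at ZT20 lay below the lowest at ZT8, whereas the control groups overlapped. Ordered by mean, *Cirbp* was highest in *ChAT-BKO* at ZT8 (79.3 ± 9.46 CPM, SD, n = 6), followed by controls at ZT8 (71.8 ± 16.1), controls at ZT20 (60.9 ± 6.52) and *ChAT-BKO* at ZT20 (54.1 ± 4.39). No pair of neighbours in this order passed an exact permutation test of mean log2 CPM (two-sided, p = 0.301, 0.184 and 0.0541 from the top, adjusted p = 0.344, 0.245 and 0.108 over 8 tests of both members, smallest possible p 0.00216).

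*Rbm3* ran from 48.9 to 58.7 CPM in controls at ZT8, with a median of 55.2, and from 44.2 to 58.6 CPM at ZT20, with a median of 49.0. In *ChAT-BKO* neurons it ran from 47.2 to 63.3 CPM at ZT8, with a median of 54.8, and from 35.0 to 47.6 CPM at ZT20, with a median of 43.7. Here 5 of 6 *ChAT-BKO* libraries at ZT20 lay below the lowest at ZT8, and the groups overlapped by a single library. The order of the means was that of *Cirbp*, at 55.3 ± 6.04 CPM in *ChAT-BKO* at ZT8, 54.1 ± 3.79 in controls at ZT8, 49.5 ± 5.25 in controls at ZT20 and 43.1 ± 4.68 in *ChAT-BKO* at ZT20 (SD, n = 6). Neighbours of *Rbm3* gave p = 0.727, 0.102 and 0.0390 by the same exact test (adjusted p = 0.727, 0.163 and 0.104).

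**Figure D1:**
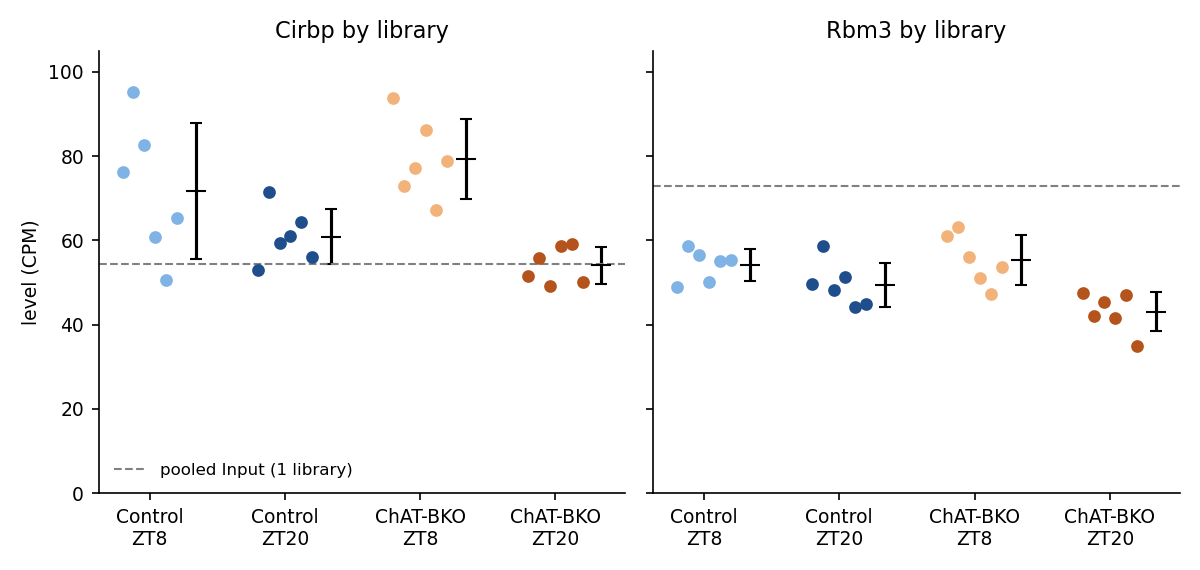
Levels of *Cirbp* and *Rbm3* in CPM for each of the 24 IP libraries by genotype and time (points), with the group mean and SD beside them (n = 6) and the pooled Input as a dashed line. For *Cirbp*, the *ChAT-BKO* libraries at ZT20 (49.1 to 59.2 CPM) all sit below those at ZT8 (67.3 to 93.7 CPM), and for *Rbm3* all IP libraries sit below the Input at 72.9 CPM.

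Against whole spinal cord, the CPM ratios of the members differed in sign. *Cirbp* was at 66.5 CPM on average over the IP libraries and 54.3 CPM in the Input, a log2 ratio of 0.29, and 19 of 24 IP libraries were above the Input. *Rbm3* was at 50.5 CPM in the IP and 72.9 CPM in the Input, a log2 ratio of -0.53, and 0 of 24 were above. Input is a single pooled library, so that these ratios have no test. No adjustment was made between IP and Input, whose marker levels differ widely. The sign of each ratio depends on that choice, whereas the order of the ratios does not. Per kilobase of transcript, *Cirbp* was at 50.4 to 157 CPM over its coding transcripts of 1321 to 423 bases. *Rbm3* was at 18.1 to 52.1 CPM over its coding transcripts of 2792 to 969 bases. The order of the level per length between the genes thus depends on the transcripts assumed.

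The first comparison asked whether the members differ between the dark and the light period, in each genotype. In *ChAT-BKO* neurons *Cirbp* fell at ZT20, with a log2 fold change of -0.56 (SE 0.08, 95% interval -0.73 to -0.40, edgeR adjusted p = 0.00181), which is a change of -32.4%. It ranked 7 by p among the 21738 genes tested, of which 62, or 0.285%, passed, 12 of them lower at ZT20. *Rbm3* had a log2 fold change of -0.36 in the same mice (SE 0.08, 95% interval -0.53 to -0.19), a difference of -22.1% that did not pass over all genes (edgeR adjusted p = 0.0668). By exact permutation of mean log2 CPM, with an adjustment over 8 tests, both differences passed (p = 0.00216 and adjusted p = 0.0173 for *Cirbp*, p = 0.00433 and adjusted p = 0.0173 for *Rbm3*). The members were chosen with earlier results of these data known, and the adjustment over 8 tests does not cover that choice. In bulk libraries of this kind, fewer cells that express a gene and less RNA per cell cannot be told apart.

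The call for *Rbm3* in *ChAT-BKO* neurons depended on the method, while that for *Cirbp* did not. *Cirbp* passed in all 8 other settings and in all 12 fits that left out 1 library, with log2 fold changes from -0.60 to -0.52 without single libraries (edgeR adjusted p = 0.000732 to 0.00797). *Rbm3* kept its negative sign in all 9 other settings, from -0.38 to -0.36, and passed in 4 of them, namely DESeq2 (adjusted p = 0.00329), edgeR without a filter on low counts (adjusted p = 0.0459), edgeR on all 24 libraries (adjusted p = 0.0222) and edgeR with the length slope described below (adjusted p = 0.000941). It did not pass in any of the 12 fits that left out 1 library (edgeR adjusted p = 0.0592 to 0.170).

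In controls the same comparison gave a log2 fold change of -0.24 for *Cirbp* (SE 0.11, 95% interval -0.48 to -0.00028, unadjusted p = 0.0498, edgeR adjusted p = 0.605) and -0.13 for *Rbm3* (SE 0.07, 95% interval -0.28 to 0.02, unadjusted p = 0.0797, edgeR adjusted p = 0.667). Neither member was called, against 25 of 21738 genes, or 0.115%. Leaving out each library in turn moved the *Cirbp* value over a range of -0.31 to -0.13. Library 5 of the controls at ZT8, at 50.6 CPM, was the lowest of its group, and library 2, at 95.3 CPM, the highest.

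Whether the ZT20 versus ZT8 effect differed between genotypes was tested as an interaction on 24 libraries. The difference of effects was -0.32 for *Cirbp* (SE 0.15, 95% interval -0.63 to -0.01, unadjusted p = 0.0413) and -0.23 for *Rbm3* (SE 0.11, unadjusted p = 0.0492), and for both the edgeR adjusted p was 1.00. Of 21738 genes, 0 (0%) passed for this difference with edgeR, DESeq2 or limma voom, and 848, or 3.90%, had an unadjusted p under 0.05 with edgeR, 565 with DESeq2 and 1029 with limma voom. A larger effect in *ChAT-BKO* neurons than in controls was thus not shown for either member.

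**Figure D2:**
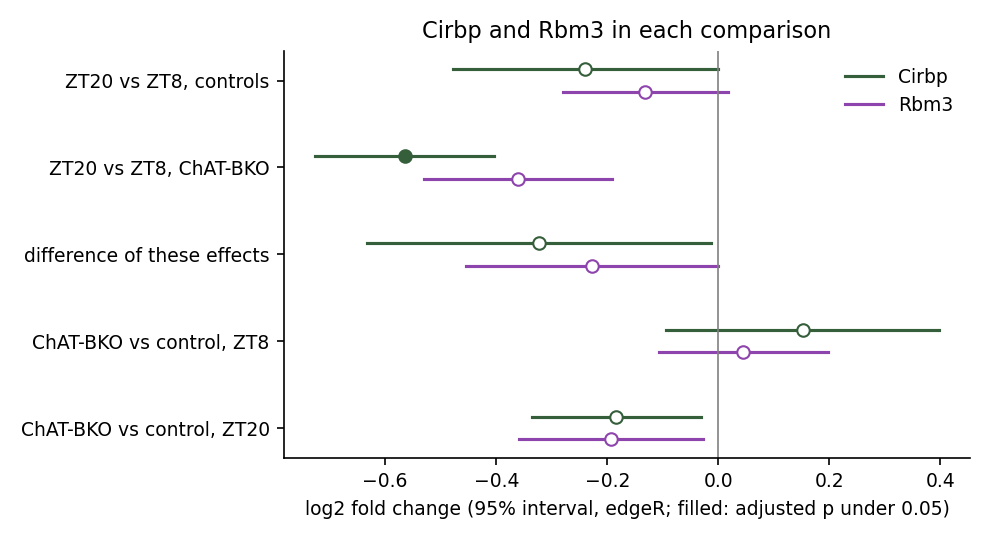
Log2 fold changes of *Cirbp* (green) and *Rbm3* (purple) with 95% intervals from edgeR in the 5 comparisons. Filled points passed an adjusted p of 0.05 over all genes, which was the case only for *Cirbp* at ZT20 versus ZT8 in *ChAT-BKO* neurons (-0.56), and the genotype comparisons lie between -0.19 and 0.15.

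The second comparison asked what *Bmal1* deletion does to the members at each time. At ZT8 the log2 fold change of *ChAT-BKO* versus control was 0.15 for *Cirbp* (SE 0.12, 95% interval -0.09 to 0.40, edgeR adjusted p = 1.00) and 0.05 for *Rbm3* (SE 0.07, 95% interval -0.11 to 0.20, edgeR adjusted p = 1.00), and 40 genes, or 0.184%, were called. At ZT20 it was -0.18 for *Cirbp* (SE 0.07, 95% interval -0.33 to -0.03, edgeR adjusted p = 0.702) and -0.19 for *Rbm3* (SE 0.08, 95% interval -0.36 to -0.03, edgeR adjusted p = 0.716), and 50 genes, or 0.230%, were called. Neither member was called at either time. At ZT20 both had an unadjusted p under 0.05, at 0.0203 and 0.0248, as did 6.28% of all genes tested.

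Skeletal muscle RNA differed between genotypes at ZT20 in the same libraries. Of 6 muscle markers, 4 (*Acta1*, *Mylpf*, *Tnnc2* and *Tnnt3*) were called higher in *ChAT-BKO* than in control neurons at ZT20, with a list median log2 fold change of 2.20. Their summed level ran from 1.29 to 90.0 CPM in controls at ZT8, from 5.59 to 22.1 CPM in controls at ZT20, from 2.88 to 133 CPM in *ChAT-BKO* at ZT8 and from 3.56 to 81.1 CPM in *ChAT-BKO* at ZT20, and *Acta1*, *Ckm*, *Myh4*, *Tnnt3*, *Tnnc2* and *Mylpf* were each above 0 in some library of every group. Between ZT20 and ZT8, 0 of 6 were called, with medians of 0.79 in *ChAT-BKO* and -1.54 in controls, and the difference of these effects had a median of 2.46 with 0 of 6 called. The part of muscle RNA in the members' values was not tested. The cholinergic, oligodendrocyte, astrocyte, microglia and endothelial lists had 0 of 6 markers called in each of the 5 comparisons. Endothelial markers had a median log2 fold change at ZT20 versus ZT8 of 0.49 in controls, where 3 of 6 had an unadjusted p under 0.05, and of 0.26 in *ChAT-BKO* neurons, where 1 of 6 did. *Cldn5*, a tight junction gene of endothelium, was at 0.71 (edgeR adjusted p = 0.239) and 0.75 (edgeR adjusted p = 0.0987). The summed endothelial level ran from 8.71 to 14.0 CPM in controls at ZT8 and 13.3 to 21.9 CPM at ZT20, and from 7.83 to 14.0 CPM and 11.6 to 19.0 CPM in *ChAT-BKO* neurons, with none of the 6 at 0 in a library, and its part in the members' values was not tested.

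Within groups, *Cirbp* moved with a property of the libraries that was not seen with *Rbm3* over all groups. The length slope, the change in log2 CPM for each doubling of a gene's exon length across genes, ran from 0.16 to 0.37 over the IP libraries. Between groups its means gave p = 0.504 to 0.872 by exact permutation (two-sided, 4 comparisons). With group means removed, log2 CPM of *Cirbp* was related to this slope over 24 libraries with Pearson's r = -0.83 and Spearman's rho = -0.86 (permutation p = 1e-05 for both, the smallest that 100000 resamples can give, adjusted p = 5e-05 over 5 relations). Without the 2 libraries farthest from the *Cirbp* median r was -0.82, and within single groups it lay between -0.95 and -0.77. *Rbm3* gave r = -0.06 and rho = -0.10 (permutation p = 0.788 and 0.643, adjusted p = 0.931 and 0.804), and r = -0.22 without the 2 libraries farthest from its median. Within single groups the r of *Rbm3* lay between -0.76, in controls at ZT20, and 0.37. A relation as strong as that of *Cirbp* was held by 24.1% of the 8737 genes with at least 10 CPM, and one as strong as that of *Rbm3* by 95.6%.

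**Figure D3:**
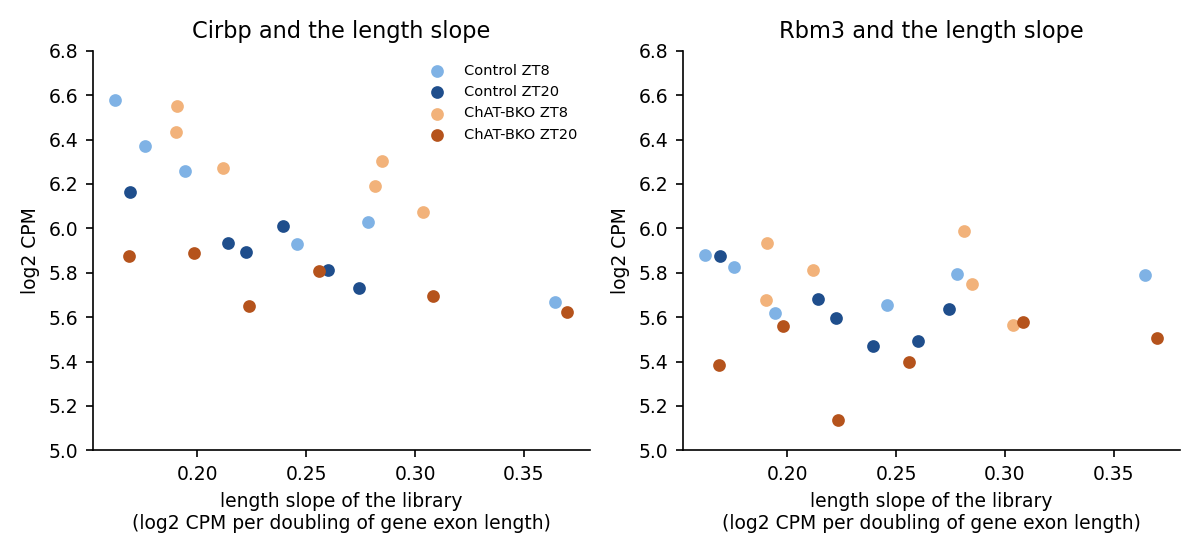
Log2 CPM of *Cirbp* and *Rbm3* against the length slope of each library (log2 CPM per doubling of gene exon length), with 6 libraries per group as coloured points. *Cirbp* declines along the slope within each group (r = -0.83 with group means removed), with the *ChAT-BKO* libraries at ZT20 below those at ZT8 at like slopes, and for *Rbm3* the same r is -0.06.

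With the slope as a covariate, *Cirbp* had a log2 fold change of -0.53 between ZT20 and ZT8 in *ChAT-BKO* neurons (SE 0.05, edgeR adjusted p = 7.61e-08) and -0.24 in controls (SE 0.05, edgeR adjusted p = 0.00948), so that the value in controls stayed the same, its SE fell from 0.11 and it was called. This setting called 485 genes in *ChAT-BKO* and 360 in controls. The difference of effects was -0.26 for *Cirbp* (SE 0.08, edgeR adjusted p = 0.827) and -0.22 for *Rbm3* (SE 0.10, edgeR adjusted p = 0.868) and was not called.

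**Figure D4:**
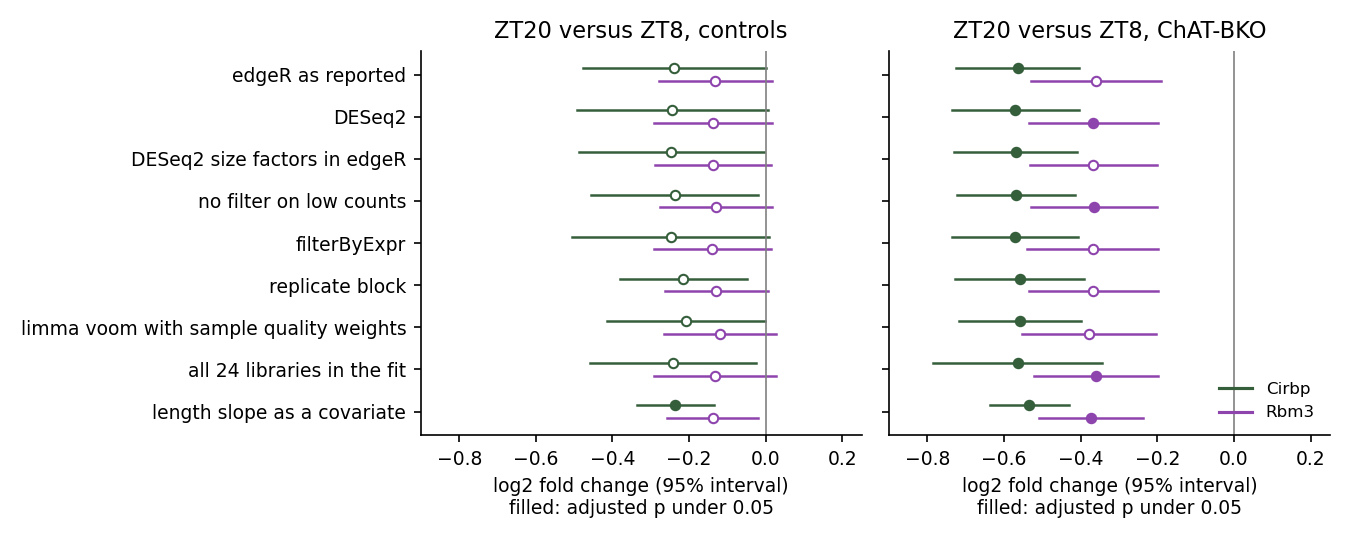
Log2 fold changes of *Cirbp* (green) and *Rbm3* (purple), ZT20 versus ZT8, with 95% intervals under each setting, in controls and in *ChAT-BKO* neurons. Filled points passed an adjusted p of 0.05, which *Cirbp* did in every setting in *ChAT-BKO* neurons and only with the length slope in controls, while *Rbm3* passed in 4 of the alternatives in *ChAT-BKO* neurons.

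A relation between the members from library to library, beyond their group means, was not shown. Over 24 libraries r was 0.31 and rho was 0.27 (permutation p = 0.112 and 0.212, adjusted p = 0.280 and 0.530), and r was 0.17 without control library 2 and *ChAT-BKO* library 1 at ZT8, the 2 farthest from the *Cirbp* median. The log2 ratio of *Cirbp* to *Rbm3* within a library, which no scaling of libraries can change, was 0.52 ± 0.18 at ZT8 and 0.33 ± 0.18 at ZT20 in *ChAT-BKO* neurons (SD, n = 6, exact permutation p = 0.104, adjusted p = 0.416 over 4 comparisons). Unequal change of the members was therefore not shown. In controls the ratio was 0.38 ± 0.31 at ZT8 and 0.30 ± 0.14 at ZT20 (exact permutation p = 0.589, adjusted p = 0.736).

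Of 15 listed genes, heat-inducible chaperones and cochaperones with their regulator *Hsf1*, 3 rose at ZT20 in *ChAT-BKO* neurons and 0 passed in controls. Over all genes tested, 0.285% were called in *ChAT-BKO* neurons and 0.115% in controls. Among these genes, 14 chaperones and cochaperones and *Hsf1*, all 15 had a positive log2 fold change in *ChAT-BKO* neurons, with a median of 0.16 beside 0.00 over all genes tested. An unadjusted p under 0.05 with edgeR was held there by 10 of the 15 and by 9.42% of all genes tested. *Hspa1b*, an HSP70 gene, rose from 9.76 ± 1.37 to 31.2 ± 8.92 CPM (log2 fold change 1.63, edgeR adjusted p = 9.25e-06), and its groups did not overlap, at 8.07 to 11.3 CPM and 23.5 to 43.6 CPM. *Hspa1a*, its near-identical copy, rose from 35.2 ± 3.73 to 55.0 ± 8.68 CPM (log2 fold change 0.63, edgeR adjusted p = 0.00442), and reads of the pair can be split between them with error. *Dnajb1*, an HSP40 cochaperone, rose from 64.2 ± 5.36 to 89.4 ± 8.19 CPM (log2 fold change 0.48, edgeR adjusted p = 0.00225), again without overlap. In controls all 15 were also positive, with a median of 0.11, and 7 had an unadjusted p under 0.05 with edgeR, as did 8.25% of all genes tested. The difference of effects between genotypes was called for 0 of the 15, and 0% of all genes tested. For it, 3 of the 15 had an unadjusted p under 0.05 with edgeR, beside 3.90% of all genes tested. Between genotypes 0 of the 15 were called at ZT8 and at ZT20, beside 0.184% and 0.230% of all genes tested. An unadjusted p under 0.05 with edgeR was held by 2 of the 15 at ZT8 and 3 at ZT20, beside 4.83% and 6.28% of all genes tested.

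**Figure D5:**
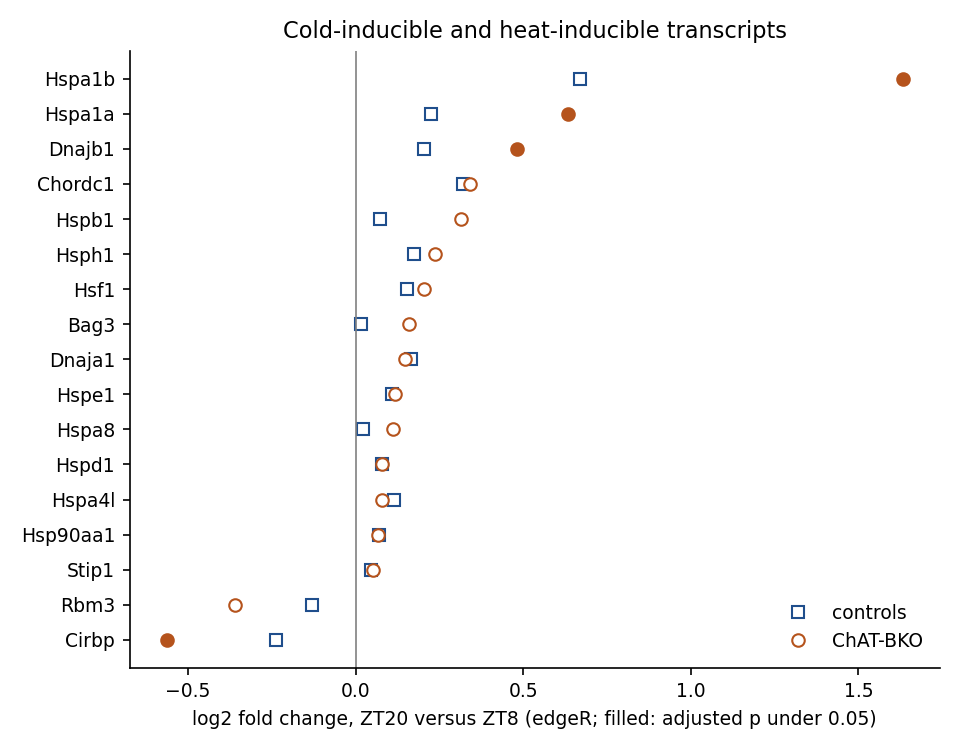
Log2 fold changes from edgeR, ZT20 versus ZT8, of *Cirbp*, *Rbm3* and the 15 listed genes (heat-inducible chaperones, cochaperones and *Hsf1*) in controls (squares) and *ChAT-BKO* neurons (circles), filled where the adjusted p was under 0.05. The 2 cold-inducible genes are negative and the 15 listed genes positive in both genotypes, with *Hspa1b* at 1.63 and *Cirbp* at -0.56 in *ChAT-BKO* neurons.

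Within groups, from library to library, no relation of *Hspa1b* with either member passed. With group means removed, r was -0.03 and rho -0.02 for *Cirbp* (permutation p = 0.931 for both, adjusted p = 0.931 for both) and r was -0.27 and rho -0.18 for *Rbm3* (permutation p = 0.208 and 0.413, adjusted p = 0.347 and 0.688). Without the 2 libraries farthest from the median of the member, r was 0.25 and -0.18.

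Of the genes known to act on the members, 0 of 10 were called in any of the 5 comparisons with edgeR. Over all genes tested, the share called was 0% to 0.285%, so that few calls among 10 genes could be met. The 10 were *Sp1*, *Hnrnph1*, which represses a poison exon of *Rbm3*, the Cdc2-like kinases *Clk1* to *Clk4*, whose activity follows temperature, the neurotrophin receptor *Ntrk2* with *Plcg1* and *Creb1*, and the warmth-gated channel *Trpv4*. In *ChAT-BKO* neurons, 6 of the 10 had an unadjusted p under 0.05 between ZT20 and ZT8, beside 9.42% of all genes tested, and 2 of 10 in controls, beside 8.25%. The 6 in *ChAT-BKO* neurons included *Trpv4*, which was near a floor of 3 counts in a library. It was at 0.21 ± 0.14 CPM at ZT8, with 1 library at 0, and at 0.51 ± 0.27 CPM at ZT20. *Clk1* was at 9.46 ± 4.01 CPM at ZT8 and 16.0 ± 2.09 CPM at ZT20 in *ChAT-BKO* neurons (log2 fold change 0.70, edgeR adjusted p = 0.186), and the groups overlapped, since the highest library at ZT8 was at 16.5 CPM. *Hnrnph1* had a log2 fold change of 0.26 in controls (edgeR adjusted p = 0.132) and 0.14 in *ChAT-BKO* neurons (edgeR adjusted p = 0.514).

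Among 5 transcripts that the proteins are known to bind or act on, 1 was called, at ZT20 versus ZT8 in both genotypes. The share called over all genes tested was 0.115% in controls and 0.285% in *ChAT-BKO* neurons. *Dbp*, a clock output factor, fell at ZT20 in controls from 17.5 ± 3.17 to 9.66 ± 1.66 CPM (log2 fold change -0.86, edgeR adjusted p = 0.00740) and in *ChAT-BKO* neurons from 13.4 ± 1.75 to 8.29 ± 0.80 CPM (log2 fold change -0.72, edgeR adjusted p = 0.00249). *Clock*, the partner of BMAL1, had values of 0.18 and 0.11 (edgeR adjusted p = 0.711 and 0.835), and *Rtn3*, a reticulon whose translation RBM3 raises, 0.04 and 0.00 (edgeR adjusted p = 0.904 and 1.00). *Txn1* (thioredoxin) and *Rpa2* (a replication protein), described as targets of CIRBP, were not called in any comparison. The genes *Rbmx*, *Rbmx2* and *Rbmxl1*, 3 of 4 listed by the shared RBMX name that passed the filter on low counts, had 0 called in each comparison with edgeR. In *ChAT-BKO* neurons at ZT20 versus ZT8 their values were -0.20, -0.28 and 0.13 (edgeR adjusted p = 0.587, 0.523 and 0.664). *Rbmxl2* did not pass the filter.

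The genes most like *Cirbp* over the 24 libraries, by Pearson's r of log2 CPM among 8737 genes, were *Tk2* (0.89), *Aifm3* (0.88), *Hnrnpd* (0.88), *Zranb1* (0.86) and *Dtx3* (0.85). With group means removed their r was 0.75 to 0.82. *Rbm3* ranked 391 in likeness to *Cirbp*, with r = 0.66. The genes most like *Rbm3* were *Hnrnpd* (0.77), *Nfia* (0.75), *Hmgcs1* (0.74), *9330102E08Rik* (0.74) and *Vps9d1* (0.73), and *Cirbp* ranked 29. *Hnrnpd*, which encodes the RNA-binding protein AUF1, was in both lists, and between ZT20 and ZT8 its log2 fold change was -0.33 in *ChAT-BKO* neurons (edgeR adjusted p = 0.0248) and -0.10 in controls (edgeR adjusted p = 0.743). The ranking included group differences, so that the fold changes of *Hnrnpd* are not independent of it. These correlations share libraries, groups and the length slope and were not tested.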

How the data were processed

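RNA-seq of polyA RNA was made by the authors with a stranded kit from 24 IP libraries and 1 pooled Input. Reads were aligned to mm10 with STAR 2.7.5 and counted with RSEM, per the labels and the methods of the study. The values deposited by the authors are expected counts per gene, neither normalized nor filtered. Of all values, 6.12% were fractions, and all were rounded before the tests.

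Groups and replicate numbers came from the labels. The 21738 genes with a total of 10 or more counts in the IP samples entered edgeR 4.0.16 in R 4.3.3 (TMM, quasi-likelihood F test, two-sided, Benjamini-Hochberg over all genes, threshold 0.05). Each comparison of 2 groups used its own 12 libraries and the difference of effects all 24. Log2 CPM has a prior count of 2. Permutation tests permuted libraries within the comparison, or within groups for correlations. Alternatives were DESeq2 1.42.0, its size factors, no filter, filterByExpr, a replicate block, limma 3.58.1 voom with quality weights, all libraries in the fit, the length slope as a covariate, and each library left out. *Rbm3* summed with *Rbm3-ps*, the ratio of the members, the test of the slope between groups, and the relations with the slope and with *Hspa1b* were added after seeing the data. The fits were tested on simulated data with changes larger than those of the members, so that recovery of changes as small as theirs was not tested. Members and gene lists were chosen with earlier results of these data known. Named genes were the members, the listed genes and the 5 most like each member. Genes without an annotated length (12.9%) did not enter the slope. The Input entered no test. Protein sequences and a promoter of *Rbm3* were not used here.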

Additional observations from a re-analysis of the deposited data

Results flagged for a closer look

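Dixon's criterion, which chance meets in about 1 in 20 groups, was applied to *Cirbp*, *Rbm3*, *Hspa1b*, *Hspa1a*, *Dnajb1* and *Dbp* in each of the 4 groups. By it, 2 libraries stood apart from the other 5 of their group. The other listed genes were not screened. Both concerned *Hspa1a*, which was at 53.5 CPM in control library 1 at ZT8 and at 51.2 CPM in control library 6 at ZT20. Neither *Cirbp* nor *Rbm3* had such a library in any of the 4 groups.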

How the results depend on the processing

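Of 253 values for the members under other settings, 247 kept their direction and side of the threshold, 5 passed only under the alternative and 1 changed sign. The 5 were *Cirbp* in controls at ZT20 versus ZT8 with the length slope (-0.24) and *Rbm3* in *ChAT-BKO* at ZT20 versus ZT8 with DESeq2 (-0.37), without the filter (-0.36), with all 24 libraries (-0.36) and with the length slope (-0.37). The cause was not tested. *Rbm3* in *ChAT-BKO* versus control at ZT8 was at -0.0011 without *ChAT-BKO* library 2 and at most 0.078 without other libraries.

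Counts of genes called moved more. At ZT20 versus ZT8 in controls 25 became 127 with DESeq2, 86 with the replicate block, 360 with the length slope and 11 to 28 without single libraries. In *ChAT-BKO* 62 became 225 with DESeq2, 140 with all 24 libraries, 485 with the length slope and 33 to 56 without single libraries. For *ChAT-BKO* versus control at ZT8, 40 became 70 with DESeq2, 69 with the replicate block, 164 with the length slope and 19 to 42 without single libraries, and at ZT20, 50 became 91, then 168 with the length slope, and 29 to 69. The difference of effects had 1 call with the length slope, *Sprr1a*, named after its values were seen.

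The numbers were not taken to pair libraries, since not every pair's deviations from the group means correlated over 0.1. At ZT20 versus ZT8 they correlated at 0.01 to 0.36 in controls, with 2 of 6 pairs over 0.1, and at -0.20 to 0.10 in *ChAT-BKO*, with 0 of 6. Between genotypes they did so at -0.17 to 0.27 at ZT8, with 3 of 6, and at -0.08 to 0.24 at ZT20, with 2 of 6. Of 12 libraries, 0 to 3 correlated best with their own number. With the replicate block, *Cirbp* in *ChAT-BKO* at ZT20 versus ZT8 was at -0.56 and passed, and *Rbm3* was at -0.37 (edgeR adjusted p = 0.0782). Depth limits *Rbm3-ps* and *Rbm3os*, which had at most 10.8 and 5 counts in a library against a floor of 3.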

Other observations

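The genes whose log2 CPM ran most opposite to *Rbm3* over the 24 libraries, named after their values were seen, were *Hspa5* (r = -0.82), which encodes the endoplasmic reticulum chaperone BiP, *Dnajb1* (r = -0.79) and *Pprc1* (r = -0.78). With group means removed the values were -0.67, -0.52 and -0.61. At ZT20 versus ZT8, *Hspa5* rose in *ChAT-BKO* neurons with a log2 fold change of 0.34 (edgeR adjusted p = 0.0110), and its value in controls was 0.18 (edgeR adjusted p = 0.284). *Hspa5* was picked with group differences included, so that these fold changes are not independent of the ranking. The genes most opposite to *Cirbp* were *Cx3cl1* (r = -0.90), *Rhobtb2* (r = -0.88) and *Ppp1r13l* (r = -0.86), with -0.84, -0.90 and -0.75 once group means were removed. These are descriptions over shared libraries and were not tested.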
